A study of Homo sapiens with 6 samples.

Results

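The 10 genes described here encode chaperones and proteases of the mitochondrion: *HSPD1*, *HSPE1*, *HSPA9*, *DNAJA3*, *TRAP1*, *LONP1*, *CLPP*, *CLPX*, *AFG3L2* and *HTRA2*. They were picked by gene name from the 58735 genes of the deposited tables, and each name matched 1 row. The RNA came from H2452, an established pleural mesothelioma (PM) cell line, in 3 libraries of cells given a scrambled guide (sgCtrl) and 3 of cells given a guide against *NF2* (sg*NF2*-1, labelled *NF2*-KO). *NF2* encodes merlin, a membrane-linked tumour suppressor upstream of the Hippo pathway. Both groups, the control included, had been transduced with a lentivirus that carries the guide together with Cas9 and an mCherry marker, and both were grown in RPMI-1640 with serum. The sg*NF2*-1 cells were a sorted population edited with 1 guide, so they are not 1 clone and may hold cells in which *NF2* is intact. The study's methods speak of biological replicates for its data in general, but no label says that the 3 libraries of a group came from separate cultures, so every p-value measures only the spread between these libraries.

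Most mitochondrial proteins are made in the cytosol and enter the organelle unfolded. The matrix chaperone HSP70 pulls them in and passes many of them to the barrel-shaped chaperonin HSP60 with its lid HSP10, while an HSP90 family member acts on others. ATP-driven proteases of the matrix and inner membrane and a serine protease of the intermembrane space remove proteins that are misfolded, damaged or unassembled. In tumour cells these factors are studied because dividing cells place a heavy load on mitochondrial protein folding.

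Between 14782423 and 17416463 reads were counted to genes in each library. *NF2* itself was counted 1162, 1197 and 1025 times in sgCtrl and 692, 802 and 590 times in sg*NF2*-1, and its log2 fold change was -0.69 ± 0.10 (SE, edgeR adjusted p = 7.87e-06). The RNA of the targeted gene was thus lower in all sg*NF2*-1 libraries but far from absent, and the position of the guide within the transcript was not used here. Of 8 mesothelial markers, 6 were clearly counted (*MSLN*, *PDPN*, *BNC1*, *WT1*, *CALB2* and *UPK3B*), whereas *KRT5* and *LRRN4* had at most 5 counts in any library. Of these markers, *MSLN* (log2 fold change 0.66) and *BNC1* (0.54) were higher in sg*NF2*-1 and *PDPN* (-1.28) and *WT1* (-1.04) lower, with edgeR adjusted p of 1.71e-05, 0.000182, 8.31e-10 and 6.81e-05. The pan-leukocyte marker *PTPRC* was at 0 in every library, and the 3 lung adenocarcinoma markers summed to 0 to 7, with *NKX2-1* at 0. The 3 endothelial markers summed to 94 to 140 counts in sgCtrl and 33 to 50 in sg*NF2*-1. This fall was that of *PECAM1*, at 83 to 117 and 16 to 26. *CDH5* did not fall, at 9 to 22 and 14 to 24 (log2 fold change 0.37, edgeR adjusted p = 0.534), and *VWF* had 0 to 2 counts. The part of these genes in the results was not tested. The genes of the mitochondrial genome took 2.65 to 3.69% of the counts in sgCtrl and 3.67 to 4.67% in sg*NF2*-1, ranges that overlapped slightly. The part of that share in the results was not tested either. In bulk RNA, fewer cells that express a gene and less of its RNA per cell cannot be told apart.

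Of the 10 genes, 7 were higher in sg*NF2*-1 with an adjusted p under 0.05 (*HSPA9*, *DNAJA3*, *TRAP1*, *LONP1*, *CLPP*, *AFG3L2* and *HTRA2*), 0 were lower, and *HSPD1*, *HSPE1* and *CLPX* did not pass. Over all 14179 genes tested, 17.7% were called higher and 16.6% lower by the same rule. A log2 fold change above 0.5 in addition was reached by 4 of the 10 (*TRAP1*, *LONP1*, *HTRA2* and *HSPA9*), against 8.42% of all genes tested. The CPM values (counts scaled to library size with TMM factors) of the 2 groups did not overlap and were higher in sg*NF2*-1 for 8 genes, these 7 and *HSPD1*, where 23.2% of all genes were apart in that direction and 22.2% in the other. The median log2 fold change was 0.41 over the 10 genes and -0.00 over all tested genes. All 10 passed the filter on low counts, with 238 to 10904 counts per gene and library.

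**Figure D1:**
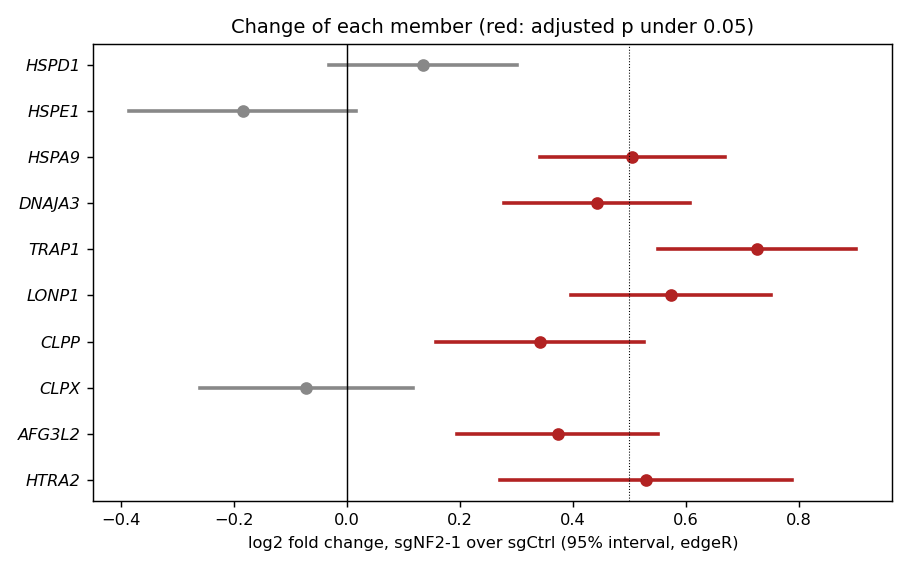
Log2 fold change of sg*NF2*-1 over sgCtrl (x axis) for each of the 10 genes (y axis), with 95% intervals from edgeR over 3 libraries a group. Red marks an adjusted p under 0.05, grey the rest, and the dotted line a log2 fold change of 0.5. The 7 red intervals lie to the right of 0, from *CLPP* at 0.34 to *TRAP1* at 0.73, and the intervals of *HSPD1*, *HSPE1* and *CLPX* include 0.

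The start-site sequences of 4 of these genes are shown here because they lie at the head-to-head chaperonin pair, which did not pass the test, and at the 3 genes with roles in the matrix that rose past a log2 fold change of 0.5. They come from RefSeq (GRCh38.p14), run 5′ to 3′ along the gene's own strand, and cover 250 bases before and 50 bases after a start site. Capitals mark matches to short motifs that were chosen after some of the sequences had been seen: heat shock element arrangements (TTCNNGAA and GAANNTTC), the cAMP response element TGACGTCA, the C/EBP-ATF element TGATGNAA, the E-box CACGTG, the NRF1 motif GCATGCGC and the TEAD motif GGAATG, each searched on both strands.
HSPD1, chr2:197499791-197500090, minus strand: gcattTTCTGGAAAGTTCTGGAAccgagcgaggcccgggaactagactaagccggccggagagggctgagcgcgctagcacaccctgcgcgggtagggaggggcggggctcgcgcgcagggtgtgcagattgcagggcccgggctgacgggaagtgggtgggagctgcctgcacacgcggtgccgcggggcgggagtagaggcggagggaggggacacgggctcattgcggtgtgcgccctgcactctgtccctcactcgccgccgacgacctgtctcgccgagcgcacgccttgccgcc
HSPA9, chr5:138575352-138575651, minus strand: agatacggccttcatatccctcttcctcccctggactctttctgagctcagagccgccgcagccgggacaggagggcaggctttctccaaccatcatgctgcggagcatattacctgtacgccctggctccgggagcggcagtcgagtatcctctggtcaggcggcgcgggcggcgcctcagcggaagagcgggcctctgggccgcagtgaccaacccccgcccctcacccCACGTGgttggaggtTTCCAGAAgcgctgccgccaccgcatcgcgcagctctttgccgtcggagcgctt
TRAP1, chr16:3717475-3717774, minus strand: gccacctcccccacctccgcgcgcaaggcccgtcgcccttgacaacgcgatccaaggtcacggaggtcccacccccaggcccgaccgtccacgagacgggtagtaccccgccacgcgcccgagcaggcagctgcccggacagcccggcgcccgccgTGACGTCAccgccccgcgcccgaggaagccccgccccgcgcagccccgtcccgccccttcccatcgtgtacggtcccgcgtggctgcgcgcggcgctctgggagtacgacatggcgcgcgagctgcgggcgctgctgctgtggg
LONP1, chr19:5720097-5720396, minus strand: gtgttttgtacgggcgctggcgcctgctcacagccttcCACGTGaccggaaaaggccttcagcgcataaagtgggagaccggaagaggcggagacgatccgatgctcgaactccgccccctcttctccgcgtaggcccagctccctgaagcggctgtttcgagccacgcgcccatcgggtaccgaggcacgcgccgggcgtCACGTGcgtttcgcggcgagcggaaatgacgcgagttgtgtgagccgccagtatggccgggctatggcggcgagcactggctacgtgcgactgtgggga

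The *HSPD1* window opens with 3 overlapping heat shock element arrangements, which begin 245, 240 and 235 bases before the start site, on the side that faces *HSPE1*. In the *HSPA9* window, a heat shock arrangement begins 4 bases before the start site and runs across it, and an E-box begins 19 bases before it. The *TRAP1* window holds a cAMP response element that begins 94 bases before the start site, and the *LONP1* window holds 2 E-boxes, at 212 and 49 bases before it. RefSeq windows were found for 9 of the 10 genes, 12 windows in all. *CLPP* had none. In the windows not printed, a second *HSPD1* window and that of *HSPE1* share 1 E-box, a second *LONP1* window holds 4 matches to the NRF1 motif, with 2 of them overlapping, and the *DNAJA3* window holds 1. No match was found in the windows of *CLPX*, *AFG3L2* and *HTRA2*, and neither TGATGNAA nor GGAATG occurred in any of the 12. Of 35116 windows of the same length, 7.74% hold TTCNNGAA, 6.77% GAANNTTC, 1.85% TGACGTCA, 3.62% TGATGNAA, 7.26% CACGTG, 3.05% GCATGCGC and 14.0% GGAATG. A match describes the letters and not a bound site.

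*HSPD1* (ENSG00000144381, chr2:197486581-197516737 on hg38, minus strand) encodes HSP60, the chaperonin that encloses matrix proteins while they fold. Its CPM was 567, 526 and 573 in sgCtrl and 619.7, 619.5 and 589 in sg*NF2*-1. The groups did not overlap, but they were close: the lowest sg*NF2*-1 library stood only slightly above the highest control. The means were 555 ± 25.7 and 609 ± 17.5 (SD, n = 3), which puts sg*NF2*-1 at 109.8% of the control. The log2 fold change of 0.13 ± 0.08 (SE, 95% interval -0.03 to 0.30) did not pass the test (edgeR adjusted p = 0.207), and the interval leaves out a rise of the size seen for *HSPA9*.

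*HSPE1* (ENSG00000115541, chr2:197499994-197503457, plus strand) encodes HSP10, the lid that closes the HSP60 barrel, and it is transcribed away from *HSPD1* in the opposite direction. Its CPM was 52.7, 49.1 and 58.8 in sgCtrl and 43.1, 49.4 and 49.0 in sg*NF2*-1. A control library, at 49.1, lay between the sg*NF2*-1 values, so the groups overlapped. With means of 53.6 ± 4.92 and 47.2 ± 3.56 (SD, n = 3), the log2 fold change was -0.18 ± 0.10 (SE, 95% interval -0.38 to 0.02, edgeR adjusted p = 0.152). The gene is short and has many processed copies: 26 annotated pseudogenes carry its name, and together they took counts worth 1.32 to 2.85% of its own. The 17 pseudogenes of *HSPD1* took 1.11 to 1.76% of its count. Of the exonic bases of *HSPE1*, 14.2% lie under *HSPD1* on the other strand and 9.71% under the readthrough gene *HSPE1-MOB4*, which had 0 to 1 counts, so reads of these genes may be mixed with its own.

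*HSPA9* (ENSG00000113013, chr5:138553756-138575724, minus strand) encodes mortalin, the matrix HSP70 that draws precursors through the import channel and folds them. Its CPM was 397, 386 and 394 in sgCtrl and 569, 569 and 532 in sg*NF2*-1. The control libraries were the most even of any of the 10 genes, and all 3 sg*NF2*-1 libraries lay well above them. From 392 ± 5.84 to 557 ± 21.3 (SD, n = 3), the gene reached 142% of the control, with a log2 fold change of 0.51 ± 0.08 (SE, edgeR adjusted p = 2.0e-05).

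*DNAJA3* (ENSG00000103423, chr16:4425805-4456775, plus strand) encodes a mitochondrial HSP40, the co-chaperone that delivers substrates to mortalin and stimulates its ATPase. Its CPM was 109.7, 106 and 114 in sgCtrl and 143, 152 and 154 in sg*NF2*-1. The groups were clearly apart, and the gene stood at 136% of the control mean. The log2 fold change was 0.44 ± 0.08 (SE, edgeR adjusted p = 0.000118).

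*TRAP1* (ENSG00000126602, chr16:3651639-3717597, minus strand) encodes the mitochondrial HSP90, which has been linked to the control of respiration and survival in tumour cells. Its CPM was 142, 153 and 167 in sgCtrl and 241, 248 and 277 in sg*NF2*-1. This was the largest change among the 10 genes: the lowest sg*NF2*-1 library lay far above the highest control. The means were 154 ± 12.3 and 255 ± 19.2 (SD, n = 3), or 165% of the control, and the log2 fold change was 0.73 ± 0.09 (SE, edgeR adjusted p = 3.04e-07). Of the exonic bases of *TRAP1*, 29.3% lie under *DNASE1* on the other strand. *DNASE1* had 106 to 198 counts and a log2 fold change of -0.47 (edgeR adjusted p = 0.0322). The part of *DNASE1* in the *TRAP1* value was not tested.

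*LONP1* (ENSG00000196365, chr19:5691834-5720572, minus strand) encodes the matrix Lon protease, an ATP-driven enzyme that degrades oxidised and misfolded proteins and also binds mitochondrial DNA. Its CPM was 365, 330.3 and 334 in sgCtrl and 477, 491 and 566 in sg*NF2*-1. No libraries overlapped, although the sg*NF2*-1 libraries spread more than the controls. The means were 343 ± 19.2 and 511 ± 47.8 (SD, n = 3), or 149% of the control, and the log2 fold change was 0.57 ± 0.09 (SE, edgeR adjusted p = 1.06e-05). On the other strand *RPL36* covers 0.85% of its exonic bases, with 7012 to 7618 counts in sgCtrl and 8803 to 10638 in sg*NF2*-1. The part of *RPL36* in the *LONP1* value was not tested.

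*CLPP* (ENSG00000125656, chr19:6361452-6368910, plus strand) and *CLPX* (ENSG00000166855, chr15:65148219-65185342, minus strand) encode the 2 parts of the other matrix protease, the proteolytic chamber and the ATPase that unfolds substrates and feeds them into it. *CLPP* had a CPM of 70.2, 72.6 and 79.7 in sgCtrl and 86.7, 92.4 and 103 in sg*NF2*-1. Its groups were apart, with a log2 fold change of 0.34 ± 0.09 (SE, edgeR adjusted p = 0.00413), the smallest of the 7 that passed. *CLPX* had a CPM of 65.5, 60.3 and 54.8 in sgCtrl and 55.2, 59.0 and 57.8 in sg*NF2*-1. Here the sg*NF2*-1 libraries all fell inside the control range, and the log2 fold change of -0.07 ± 0.09 (SE, 95% interval -0.26 to 0.12) did not pass (edgeR adjusted p = 0.586).

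*AFG3L2* (ENSG00000141385, chr18:12328944-12377314, minus strand) encodes a subunit of the m-AAA protease of the inner membrane, whose active sites face the matrix. Its CPM was 68.5, 64.6 and 68.6 in sgCtrl and 87.2, 93.2 and 80.8 in sg*NF2*-1. The groups were apart, with sg*NF2*-1 at 129.5% of the control and a log2 fold change of 0.37 ± 0.09 (SE, edgeR adjusted p = 0.00144). On the other strand *TUBB6* covers 12.6% of its exonic bases, with 5412 to 5787 counts in sgCtrl and 4987 to 5776 in sg*NF2*-1. These were far more counts than *AFG3L2* had. *TUBB6* had a log2 fold change of -0.08 (edgeR adjusted p = 0.483), and its part in the *AFG3L2* value was not tested.

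*HTRA2* (ENSG00000115317, chr2:74529377-74533348, plus strand) encodes the serine protease Omi, which checks proteins of the intermembrane space and can promote apoptosis when it is released. It had the fewest counts of the 10 genes, with a CPM of 16.0, 18.4 and 15.7 in sgCtrl and 25.0, 20.5 and 26.9 in sg*NF2*-1. The groups were apart, but its standard error was the largest of the 10: the log2 fold change was 0.53 ± 0.13 (SE, edgeR adjusted p = 0.00187). Genes on the other strand cover 36.9% of its exonic bases, with *AUP1* over 16.1% and *LOXL3* over 20.8%. *AUP1*, with 1334 to 1578 counts in sgCtrl and 2060 to 2234 in sg*NF2*-1, rose by about as much (log2 fold change 0.55, edgeR adjusted p = 3.34e-05), and *LOXL3*, with 10 to 36 counts, had 0.97 (adjusted p = 0.0504). Whether counting used strand was not given, so reads from the shared bases cannot be told apart, and the part of *AUP1* in the *HTRA2* value was not tested.

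**Figure D2:**
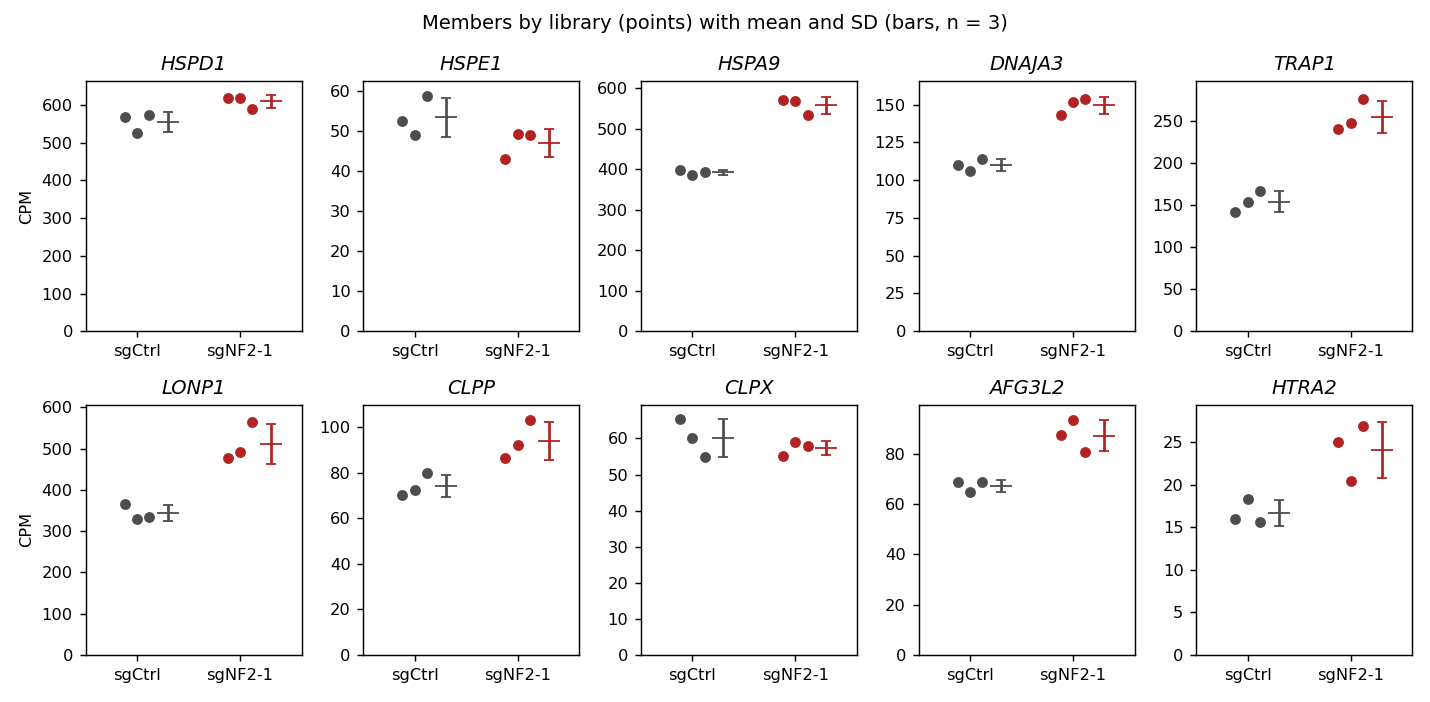
CPM of each of the 10 genes (y axis, a scale of its own in each panel, from 0) in the 3 sgCtrl (grey) and 3 sg*NF2*-1 (red) libraries, with the mean and SD at the side. The groups are apart in 8 panels, and they overlap for *HSPE1* and *CLPX*.

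For the 8 genes whose groups did not overlap, the two-sided exact permutation test over libraries gave p = 0.10, the smallest that 3 libraries against 3 allow. It gave 0.2 for *HSPE1* and 0.5 for *CLPX*. In 12 other fits of the counts, each of the 7 genes was called higher every time. *HSPA9* stayed between 0.48 and 0.54 on the log2 scale, *TRAP1* between 0.67 and 0.79, *LONP1* between 0.50 and 0.63 and *HTRA2* between 0.45 and 0.64.

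FPKM values, which divide by gene length, allow a rough comparison of levels between genes. The length used is that of all annotated exons of a gene, which can differ from the length of the RNA made. In sgCtrl the mean FPKM was 124 for *HSPD1*, 64.0 for *LONP1*, 45.0 for *HSPA9*, 30.8 for *CLPP*, 28.0 for *TRAP1*, 25.7 for *HSPE1*, 14.7 for *DNAJA3*, 10.4 for *CLPX*, 9.62 for *AFG3L2* and 5.27 for *HTRA2*. Over the 3 libraries *CLPP* overlapped *TRAP1*, *TRAP1* overlapped *HSPE1*, and *CLPX* overlapped *AFG3L2*. The other neighbours were apart. In sg*NF2*-1 the order was *HSPD1* (135), *LONP1* (94.4), *HSPA9* (63.4), *TRAP1* (45.8), *CLPP* (38.8), *HSPE1* (22.4), *DNAJA3* (19.8), *AFG3L2* (12.3), *CLPX* (9.86) and *HTRA2* (7.55), and no neighbours overlapped. *TRAP1* and *AFG3L2* each moved up by 1 place, past *CLPP* and *CLPX*. By this measure the chaperonin subunit *HSPD1* was the highest of these RNAs in both groups, and its lid *HSPE1* was several ranks below it. The place of *HSPE1* is also limited by its pseudogenes and by the bases it shares with other genes.

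**Figure D3:**
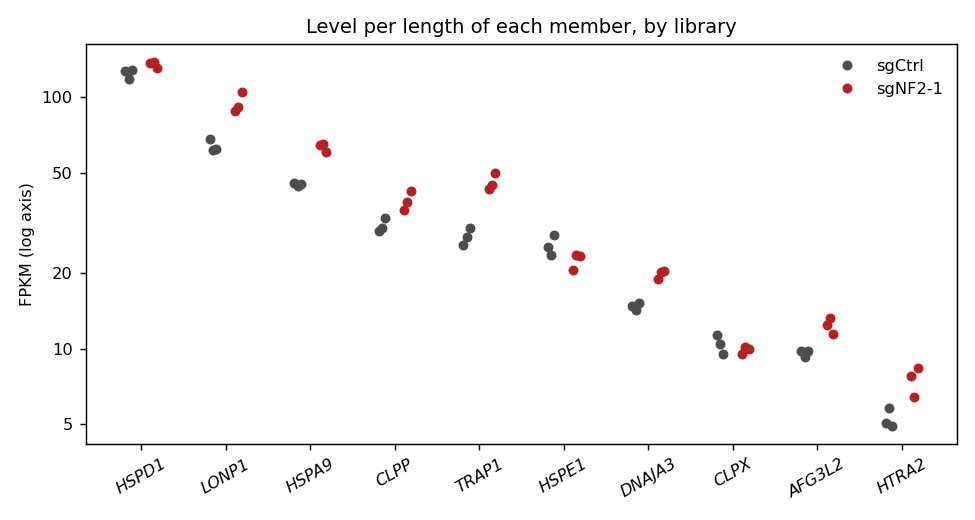
FPKM of the 10 genes on a log axis (y axis), ordered by their mean in sgCtrl (x axis). Points are the 3 sgCtrl (grey) and 3 sg*NF2*-1 (red) libraries. *HSPD1* is at the top in both groups, at a mean FPKM of 124 and 135, and *HTRA2* at the bottom, at 5.27 and 7.55.

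On log2(FPKM + 1), limma called the same 7 genes higher and 0 lower, against 13.3% called higher among the 13038 genes with enough signal. The differences on this scale ran from 0.32 for *CLPP* to 0.69 for *TRAP1*. The FPKM calls were less firm than those on counts: 4 of the 7 (*HSPA9*, *DNAJA3*, *TRAP1* and *LONP1*) held in all 9 alternatives, and only those 4 were left without sgCtrl replicate 1. *CLPP* was lost in 6 of the 9, *HTRA2* in 6 and *AFG3L2* in 4.

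Partners in the same complex did not all move alike, which was compared as the log2 ratio of their CPM in each library. The *HSPE1*/*HSPD1* ratio, lid to barrel, was -3.43, -3.42 and -3.28 in sgCtrl and -3.85, -3.65 and -3.59 in sg*NF2*-1. It was lower in every sg*NF2*-1 library, by a mean difference of -0.32. The *CLPP*/*CLPX* ratio, chamber to unfoldase, was 0.10, 0.27 and 0.54 in sgCtrl and 0.65, 0.65 and 0.83 in sg*NF2*-1, a difference of 0.41 with no overlap. The *AFG3L2*/*SPG7* ratio compares the 2 subunits that can share the m-AAA ring. It was -0.77, -0.79 and -0.51 in sgCtrl and 0.03, 0.28 and -0.07 in sg*NF2*-1, a difference of 0.77, the largest of the 5 ratios, as *SPG7* fell (log2 fold change -0.40, edgeR adjusted p = 0.000974).

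Around mortalin the ratios overlapped between the groups. *DNAJA3*/*HSPA9* differed by -0.06, and *GRPEL1*/*HSPA9*, with the nucleotide exchange factor of mortalin, by -0.16. The exact permutation test gave p = 0.10 for the 3 ratios that were apart, 0.4 for *DNAJA3*/*HSPA9* and 0.2 for *GRPEL1*/*HSPA9*, or 0.167, 0.4 and 0.25 after adjustment over the 5 ratios, so none could pass. The signs of all 5 ratios held without any 1 of the 6 libraries. For the 3 that were apart, leaving out 1 library could not have reversed the sign. Of 2 further ratios, chosen after the values were seen, *HSPA9*/*HSPD1* was -0.51, -0.45 and -0.54 in sgCtrl and -0.12, -0.12 and -0.15 in sg*NF2*-1, a difference of 0.37. *LONP1*/*CLPX* went from 2.48, 2.45 and 2.61 to 3.11, 3.06 and 3.29, a difference of 0.64. Neither overlapped between the groups. Because these ratios were chosen from the same values, their separation is a description and not a test.

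**Figure D4:**
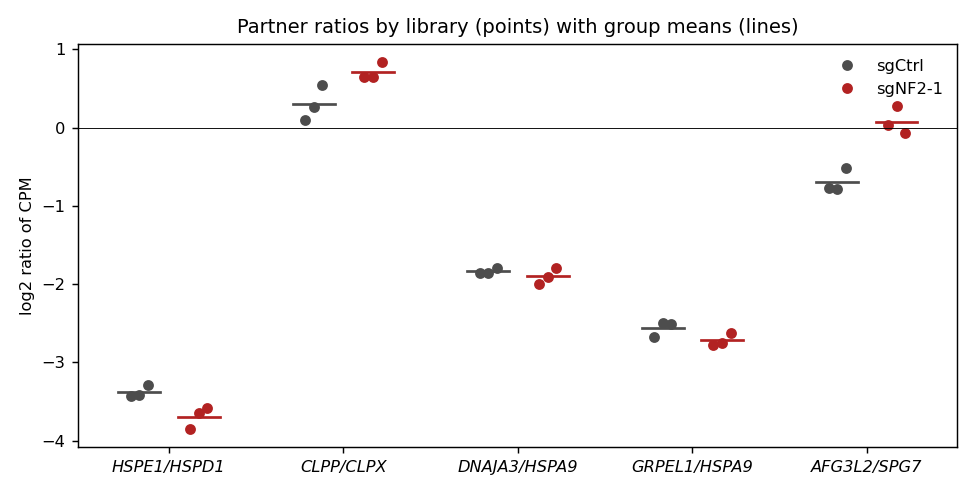
Log2 ratio of the CPM of 2 partners (y axis) for 5 pairs (x axis). Points are the 3 sgCtrl (grey) and 3 sg*NF2*-1 (red) libraries, and lines are the group means. *HSPE1*/*HSPD1* is lower in sg*NF2*-1, by -0.32, *CLPP*/*CLPX* and *AFG3L2*/*SPG7* are higher, by 0.41 and 0.77, and the 2 pairs with *HSPA9* overlap.

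Beside the lists that follow, 17.7% of all genes tested rose in sg*NF2*-1 and 16.6% fell. Other factors that work with these chaperones in the matrix were taken from a list of 8, of which 6 were tested. Of these 3 rose and 0 fell, with a median log2 fold change of 0.27: the exchange factors *GRPEL2* (0.74, edgeR adjusted p = 2.92e-06) and *GRPEL1* (0.34, adjusted p = 0.00271) and the disaggregase *CLPB* (0.32, adjusted p = 0.0456). The call of 3 was not firm: 2 were called with DESeq2, with library totals only, with no filter and with at least 10 counts in every library, and 2 to 3 when 1 library at a time was left out. Among 17 other mitochondrial proteases and prohibitins, 6 rose and 1 fell, with a median of 0.18. The 3 with the largest rise were the inner membrane peptidase subunit *IMMP2L* (0.70, adjusted p = 0.00595), *STOML2*, a scaffold of the inner membrane (0.49, adjusted p = 0.000119), and *PMPCB*, a subunit of the enzyme that cuts off import signals (0.37, adjusted p = 0.00145). *SPG7* was the gene that fell.

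Import supplies the clients of mortalin, and 12 of 13 genes for the import of proteins with a presequence were tested. Of these 6 rose and 1 fell, where 17.7% of all genes tested rose and 16.6% fell, and the median log2 fold change was 0.20. *TIMM44*, which tethers mortalin to the import channel, rose by 0.75 (edgeR adjusted p = 3.23e-07), the channel subunit *TIMM50* by 0.56 (adjusted p = 8.1e-05) and the outer membrane pore *TOMM40* by 0.48 (adjusted p = 0.000137). *TIMM17A* had -0.26 (adjusted p = 0.0343), a call that was lost without sg*NF2*-1 replicate 1 or 2, when 0 genes of the list were lower, while 2 were lower without sg*NF2*-1 replicate 3.

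Mitochondrial stress is signalled to the nucleus through ATF4 and related factors, and *HSPD1*, *HSPA9* and *LONP1* are commonly used as readouts of such stress. Here *HSPA9* and *LONP1* were called higher and *HSPD1* was not. Its partner *HSPE1* was not called either (log2 fold change -0.18, edgeR adjusted p = 0.152), while *CLPP* was called higher (0.34, adjusted p = 0.00413). Of 9 genes of mitochondrial stress signalling, 5 rose and 0 fell, where 17.7% of all genes tested rose and 16.6% fell. Their median log2 fold change was 0.48. The largest changes were those of *CHAC1* (2.05, edgeR adjusted p = 2.1e-13), *TRIB3* (1.88, adjusted p = 3.67e-14) and *DDIT3* (0.95, adjusted p = 8.69e-08), which are targets or partners of ATF4. *ATF4* (0.56, adjusted p = 1.43e-05) and *ATF5* (0.17, adjusted p = 0.239), the factors that head this response, are named here after their values were seen, and the second did not pass. Neither did *EIF2AK1* (-0.01, adjusted p = 0.964), *DELE1* (0.21, adjusted p = 0.0624) and *ASNS* (0.48, adjusted p = 0.139), also named after their values were seen. Many of these genes also answer to stress outside the mitochondrion.

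Outside the mitochondrion, the heat shock response governs chaperones of the cytosol. A list of 17 genes, called cytosolic chaperones for short, also holds the heat shock factor *HSF1*, which is not a chaperone, and chaperonin subunits. Of the 17, 3 rose and 6 fell, where 17.7% of all genes tested rose and 16.6% fell. The median log2 fold change was -0.10. The share that rose was near that of all genes. The 3 with the largest fall were *HSPA1A* (-0.96, edgeR adjusted p = 1.7e-06) and *HSPA1B* (-0.56, adjusted p = 0.00183), near-identical copies of the inducible HSP70 whose reads may be split between them, and the small chaperone *HSPB1* (-0.52, adjusted p = 6.4e-05). Those that rose were the heat shock factor *HSF1* (0.43, adjusted p = 0.000265) and the chaperonin subunits *CCT3* (0.35, adjusted p = 0.00157) and *CCT2* (0.26, adjusted p = 0.0159). Without sgCtrl replicate 3, 5 of the list were called higher.

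**Figure D5:**
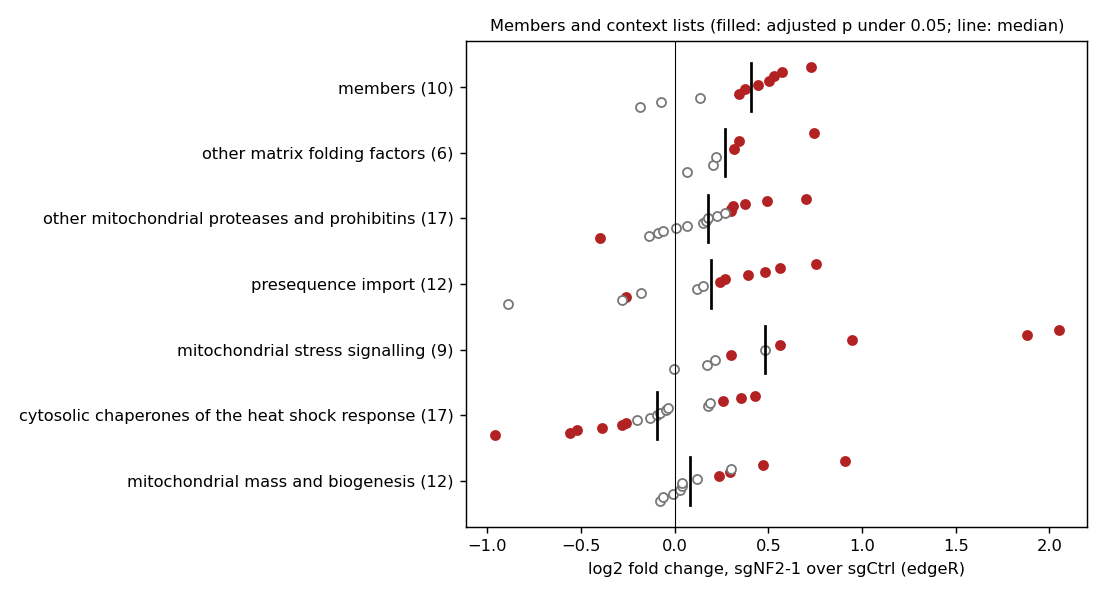
Log2 fold change of sg*NF2*-1 over sgCtrl (x axis) for the 10 genes ("members") and 6 lists of related genes (y axis, number of genes tested in brackets). Filled points have an adjusted p under 0.05 and lines mark the medians. The median is 0.41 for the 10 genes and -0.10 for the cytosolic chaperones.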

How the data were processed

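RNA from 3 sgCtrl and 3 sg*NF2*-1 samples of H2452 cells was sequenced after preparation with a NEBNext Ultra kit. Per the submitters' processing notes, HISAT2, StringTie 1.3.3b and featureCounts 1.5.0-p3 were used with hg38; strand and multiple-mapping settings were not given in the sources used here. The count files hold raw reads per gene, as the authors deposited them. The FPKM values deposited by the authors equalled the count divided by gene length and by 1 depth per library, within 0.1% (checked in each library on 9601 to 10063 genes).

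Counts were filtered with filterByExpr (minimum count 10, minimum total 15), scaled by TMM and fitted with the quasi-likelihood test of edgeR 4.0.16 (R 4.3.3), with Benjamini-Hochberg adjustment over 14179 genes. FPKM values were tested with limma 3.58.1 on log2(FPKM + 1), a scale that understates changes of low genes, where a gene averaged 0.5 FPKM or more. Single values were compared by exact permutation tests. The fits were also run on simulated counts with means and dispersions taken from these libraries. Such counts cannot show whether the libraries themselves are independent. Counting error weighs most on genes with few counts, such as *HTRA2*.

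The 10 genes, the lists and the motifs were chosen with earlier results of these data known. The text names those 10 genes, *NF2*, ratio partners, overlapping genes and up to 3 called genes per list and direction; any other is said to be named after its values were seen. Alternatives were DESeq2 1.42.0 (the tool of the study's methods), its size factors, library totals, other filters, a replicate block, leaving out each library, a log2 fold limit of 0.5 with adjusted or unadjusted p and, for FPKM, a pseudocount of 0.1. Groups and numbers came from the sample titles.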

Additional observations from a re-analysis of the deposited data

How the results depend on the processing

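None of the log2 fold changes of the 10 genes and none of the 5 partner ratios changed sign under the alternatives run for them. For the ratios, FPKM and the replicate block return the same difference by arithmetic and could not change a sign. Leaving out a library could do so only for *DNAJA3*/*HSPA9* and *GRPEL1*/*HSPA9*, whose groups overlapped. Counts of called genes have no sign and could only grow or shrink. With a log2 fold limit of 0.5, whether on adjusted or unadjusted p, 4 of the 10 genes were called higher in place of 7. Under both of these rules the lists gave 1 higher for the other matrix folding factors, 1 higher and 0 lower for the other proteases and prohibitins, 2 higher and 0 lower for import, 0 higher and 3 lower for the cytosolic chaperones and 1 higher for mitochondrial mass. Without a filter on low counts, 0 import genes were lower. Leaving out each library in turn gave 7 of the 10 genes each time, 0 to 2 import genes lower, 2 to 5 cytosolic chaperones higher (5 without sgCtrl replicate 3), 2 to 5 genes of mitochondrial mass higher (2 without sg*NF2*-1 replicate 2) and, on FPKM, 4 to 6 of the 10 genes (4 without sgCtrl replicate 1).

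With a replicate block, 7 of the 10 genes were still called higher, 2 import genes were lower, and over all genes 2698 were higher and 2501 lower, against 2515 and 2351 without it. The numbers were not treated as pairing the samples, because the study's methods name no such block. Deviations of same-numbered libraries correlated at -0.03, 0.06 and 0.05, and those of differently numbered ones at -0.11 to 0.06. With so few libraries a group, these values cannot decide whether the numbers pair the samples. Scaling by library totals alone shifted the median log2 fold change by -0.027. The strand setting of the counting was not given in the sources used here, which limits the values of genes that overlap others, such as *HTRA2*, *TRAP1*, *HSPE1* and *AFG3L2*.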

Other observations

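Of 13 genes that mark mitochondrial mass or drive its biogenesis, 12 were tested, 4 rose in sg*NF2*-1 and 0 fell, with a median log2 fold change of 0.08. Over all genes tested, 17.7% rose and 16.6% fell. The mitochondrial helicase *TWNK* (0.91, edgeR adjusted p = 1.43e-07) and the mitochondrial RNA polymerase *POLRMT* (0.47, adjusted p = 6.55e-05) rose most, followed by the coactivator *PPRC1* (0.29, adjusted p = 0.0172). The remaining called gene, *CS*, named after its values were seen, rose by 0.23 (edgeR adjusted p = 0.0308). The outer membrane channels *VDAC1*, *VDAC2* and *VDAC3*, named after their values were seen, had log2 fold changes of 0.04, 0.03 and -0.08, with adjusted p-values of 0.738, 0.82 and 0.584. The count was 2 without sg*NF2*-1 replicate 2.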
